A study of Bos taurus with 48 samples.

Results

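ACAA2 (ENSBTAG00000002863), ECHS1 (ENSBTAG00000017710) and EHHADH (ENSBTAG00000019625) encode enzymes of fatty acid beta-oxidation, and their transcripts were followed in subcutaneous adipose tissue of Norwegian Red heifers. The 3 genes were chosen by name from 24616 genes with a row in the count files, and their rows were read in all 48 samples. Biopsies were taken at the tail base of 24 heifers at 12 months of age and of the same heifers in month 7 of gestation. The heifers had been fed 1 of 4 diets of low or high protein (LP, HP) and low or high energy (LE, HE), and 6 heifers received each of LPHE, LPLE, HPHE and HPLE. In the HE diets grass silage was offered freely, and in the LE diets silage mixed with straw was restricted. The LP and HP diets differed in the concentrate, but the roughage also affected the protein content. HE heifers therefore ate more crude protein than LE heifers on the same concentrate, so energy and protein intake both differ between HE and LE. These diets were fed from calfhood until the heifers were found to be pregnant. All heifers then received the same low-energy pregnancy feed, so diet names at gestation refer to the earlier feeding. Each diet held 3 heifers of a high milk yield pedigree (HMY) and 3 of a low clinical mastitis pedigree (LCM).

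Beta-oxidation shortens fatty acyl-CoA in repeated rounds of dehydrogenation, hydration, a further dehydrogenation and thiolytic cleavage, and each round releases acetyl-CoA. Mitochondria oxidise most long-, medium- and short-chain fatty acids, whereas peroxisomes shorten very long-chain, branched and dicarboxylic acids. ECHS1 is the mitochondrial matrix hydratase for short-chain enoyl-CoA and also serves valine breakdown. ACAA2 is a mitochondrial thiolase, an enzyme of the cleavage that closes a round. EHHADH is a peroxisomal bifunctional enzyme, which carries the hydration and the following dehydrogenation in 1 protein. White adipose tissue is better known for storing fatty acids and releasing them to other organs than for burning them.

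Between 14815595 and 61027456 reads fell on genes in a sample. The lowest count of a member in any sample was 505 reads for EHHADH, 5608 for ECHS1 and 5667 for ACAA2, and all 3 genes exceeded 2 CPM in all 48 samples. Levels are given as CPM, reads on the gene scaled to the library total, after TMM normalisation over all 48 samples. They are not corrected for gene length, and levels of different genes were not compared. CIDEC, a lipid droplet protein of fat cells and the 1 of 7 adipocyte markers that could be matched to an identifier, lay between 810 and 2798 CPM in the 48 libraries. Of 9 skeletal muscle markers 5 were matched (ACTA1, MYH2, MYH7, CKM and MYLPF). Their summed level reached 10 CPM or more in 7 of the 24 libraries of 12 months and in 3 of those of gestation, while MYH2, a fast myosin, had no read in 30 of the 48 libraries. No endothelial, leukocyte or erythrocyte marker could be matched. In bulk tissue, fewer cells of a type and less RNA per cell cannot be told apart.

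At 12 months, while the diets were being fed, ECHS1 and ACAA2 were higher in LPHE than in LPLE heifers. ECHS1 ranged from 667 to 1151 CPM in LPHE heifers (median 914) and from 281 to 639 CPM in LPLE heifers (median 505). The lowest LPHE heifer was above the highest LPLE heifer, so the groups did not overlap. The share of all genes without overlap was not counted. The difference was 0.93 on the log2 scale (SE 0.25, FDR = 0.0113), a 1.91-fold higher level. ACAA2 ranged from 465 to 847 CPM in LPHE heifers (median 689) and from 281 to 497 CPM in LPLE heifers (median 408). These groups overlapped by the lowest LPHE heifer alone, which was below the highest LPLE heifer, and the difference was 0.75 (SE 0.23, FDR = 0.0331), or 1.68-fold. EHHADH ranged from 60.0 to 115 CPM in LPHE heifers (median 72.9) and from 25.3 to 89.9 CPM in LPLE heifers (median 51.4), and its difference of 0.70 (SE 0.27) had an FDR of 0.123. Of the LPLE heifers, only heifer 22 lay within the LPHE range of EHHADH. In this contrast 7.08% of 13339 expressed genes were differentially expressed (DEG, FDR under 0.1). FDR values are those of the likelihood ratio test of edgeR with Benjamini-Hochberg adjustment over all expressed genes. The study listed EHHADH as differentially expressed in this contrast, whereas EHHADH was not called here. The study selected these genes on this contrast, so it is not independent evidence of their direction. The same limit holds for every contrast below that includes the LPHE or LPLE samples of 12 months.

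**Figure D1:**
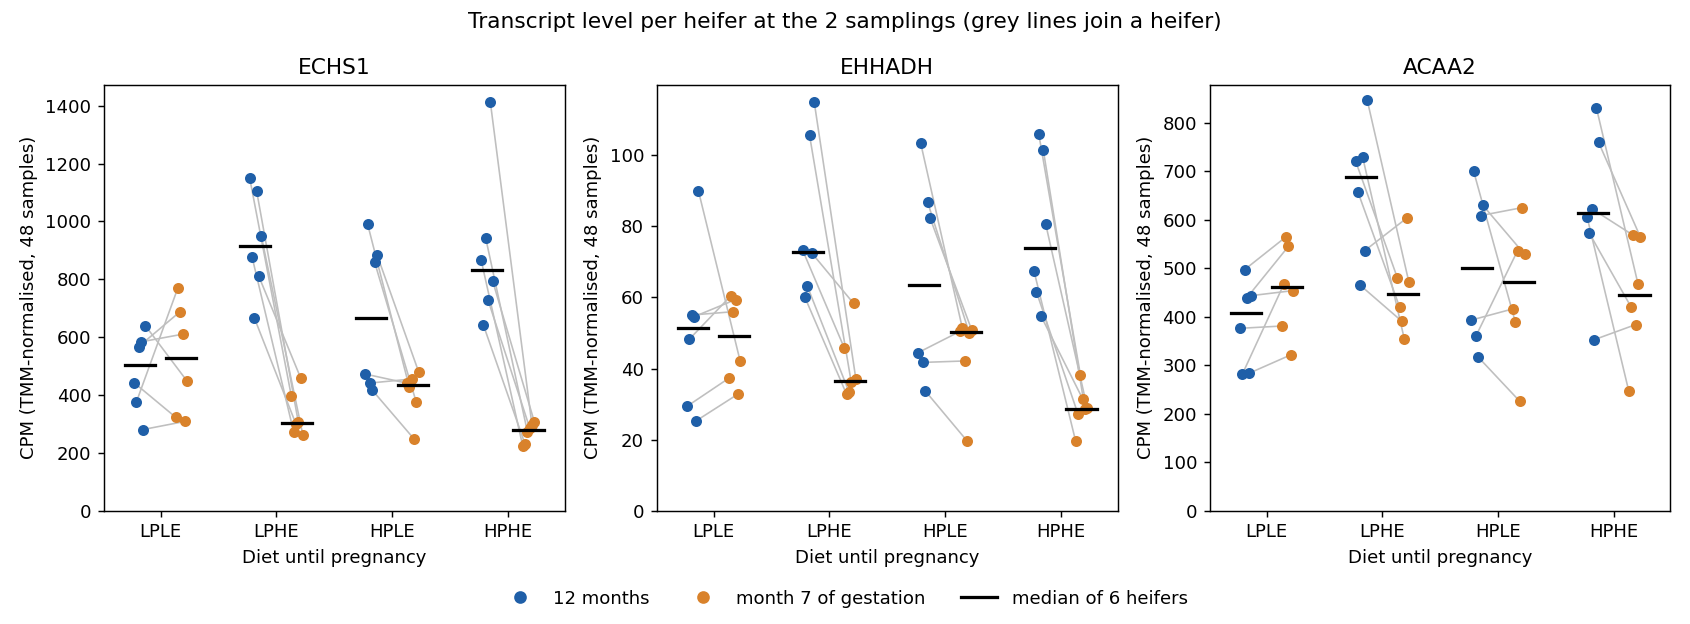
TMM-normalised CPM of ECHS1, EHHADH and ACAA2 per heifer (vertical axis, linear from 0, with its own scale for each gene) by diet, with 6 heifers per diet at 12 months (blue) and in month 7 of gestation (orange). Black bars are medians and grey lines join the same heifer. All 6 LPHE and all 6 HPHE heifers had less ECHS1 and EHHADH in gestation, whereas the LPLE medians of ECHS1 were 505 and 529 CPM.

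In an exact two-sided permutation test of log2 CPM, 6 heifers against 6, the LPHE minus LPLE difference at 12 months had p = 0.00216 for ECHS1, the smallest value this design allows, p = 0.00433 for ACAA2 and p = 0.0346 for EHHADH. After adjustment over the 12 tests of 2 diets the values were 0.0260, 0.0260 and 0.104. Without the libraries in which the muscle markers summed to 10 CPM or more, which left 3 of the 6 LPLE heifers, the difference of ECHS1 was 0.89 (FDR = 0.125) and that of ACAA2 was 0.65 (FDR = 0.222). ACAA2 also lost its call without heifer 8 (FDR = 0.103), heifer 18 (0.117) or heifer 24 (0.109), with differences of 0.65, 0.67 and 0.67. EHHADH gained a call without heifer 22 (0.91, FDR = 0.0412), without heifer 12, 13 or 15 (FDR from 0.0836 to 0.0969), in a fit of all 48 samples (FDR = 0.0706) and in a fit of the 12 heifers of both diets alone (FDR = 0.0569). Heifers 13 (HPLE) and 15 (HPHE) act on this contrast only through the shared fit and the adjustment.

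Levels of other tissue components were read in the same groups. Their markers had identifiers only through the study's tables of DEG, so that the matched markers were called here follows in part from that selection. The 5 muscle markers summed to between 0.687 and 1.37 CPM in LPHE heifers and to between 1.13 and 60.5 CPM in LPLE heifers, and all 5 were DEG with lower levels in LPHE heifers. The fibroblast markers COL1A1, COL3A1 and DCN, 3 of 6 on the list, summed to between 13524 and 41547 CPM in LPHE heifers and to between 26581 and 67883 CPM in LPLE heifers, and all 3 were lower in LPHE heifers. CIDEC was at 1653 to 2798 CPM in LPHE heifers and at 810 to 2325 CPM in LPLE heifers, a difference of 0.58 (SE 0.23, FDR = 0.132). Over both protein levels CIDEC was called higher in HE heifers (0.54, FDR = 0.0203), the 3 fibroblast markers lower (median -0.60) and 3 of the 5 muscle markers lower. The part of these components in the differences of ECHS1 and ACAA2 was not tested, beyond the fit without the libraries rich in muscle markers.

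At high protein no member passed the test of the energy level at 12 months. ECHS1 ranged from 642 to 1412 CPM in HPHE heifers (median 831) and from 417 to 990 CPM in HPLE heifers (median 666), with a difference of 0.41 (SE 0.25, FDR = 0.752). EHHADH ranged from 54.8 to 106 CPM (median 74.0) and from 33.7 to 103 CPM (median 63.5), with a difference of 0.30 (SE 0.27, FDR = 0.848). ACAA2 ranged from 353 to 832 CPM (median 615) and from 317 to 700 CPM (median 501), with a difference of 0.32 (SE 0.23, FDR = 0.785). The HPLE heifers were widely spread, with the same 3 heifers high for all 3 genes. Heifers 7, 17 and 21 had 859 to 990 CPM of ECHS1, 82.4 to 103 CPM of EHHADH and 609 to 700 CPM of ACAA2, and heifers 1, 9 and 13 had 417 to 472, 33.7 to 44.5 and 317 to 393 CPM. Both pedigrees occurred among the high and among the low heifers. The low heifers had 1115 to 1495 CPM of CIDEC, and the high heifers had 2012 to 2216 CPM. The fibroblast markers summed to 38152 to 47410 CPM in the low and to 22498 to 29653 CPM in the high heifers. The muscle markers summed to 7.85 to 117 CPM and to 0.422 to 0.834 CPM. Whether tissue composition had a part in this split was not tested. In HPHE minus HPLE, 0.12% of the expressed genes were DEG.

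The energy effects at low and at high protein were compared directly as well. The low protein effect exceeded the high protein effect by 0.52 for ECHS1 (SE 0.35), 0.41 for EHHADH (SE 0.38) and 0.43 for ACAA2 (SE 0.32), and none of these differences was significant (FDR above 0.99 for each, 0.105% of genes called). The 95% intervals of the difference reached from -0.16 to 1.20 for ECHS1, from -0.35 to 1.16 for EHHADH and from -0.20 to 1.06 for ACAA2. Over both protein levels, ECHS1 was 1.59-fold higher in HE than in LE heifers (log2 difference 0.67, SE 0.18, FDR = 0.00597) and ACAA2 1.45-fold higher (0.53, SE 0.16, FDR = 0.0213), at the FDR of 0.05 used for this contrast, which 7.2% of genes passed. EHHADH differed by 0.50 (SE 0.19, FDR = 0.0909). ACAA2 lost the call without heifer 9, 18 or 19 (FDR = 0.0561, 0.0541 and 0.0625), and EHHADH passed without heifer 7, 15, 17 or 22 (FDR from 0.0344 to 0.0477). Without the libraries rich in muscle markers, the differences were 0.63 for ECHS1 (FDR = 0.0771) and 0.54 for ACAA2 (FDR = 0.0792).

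**Figure D2:**
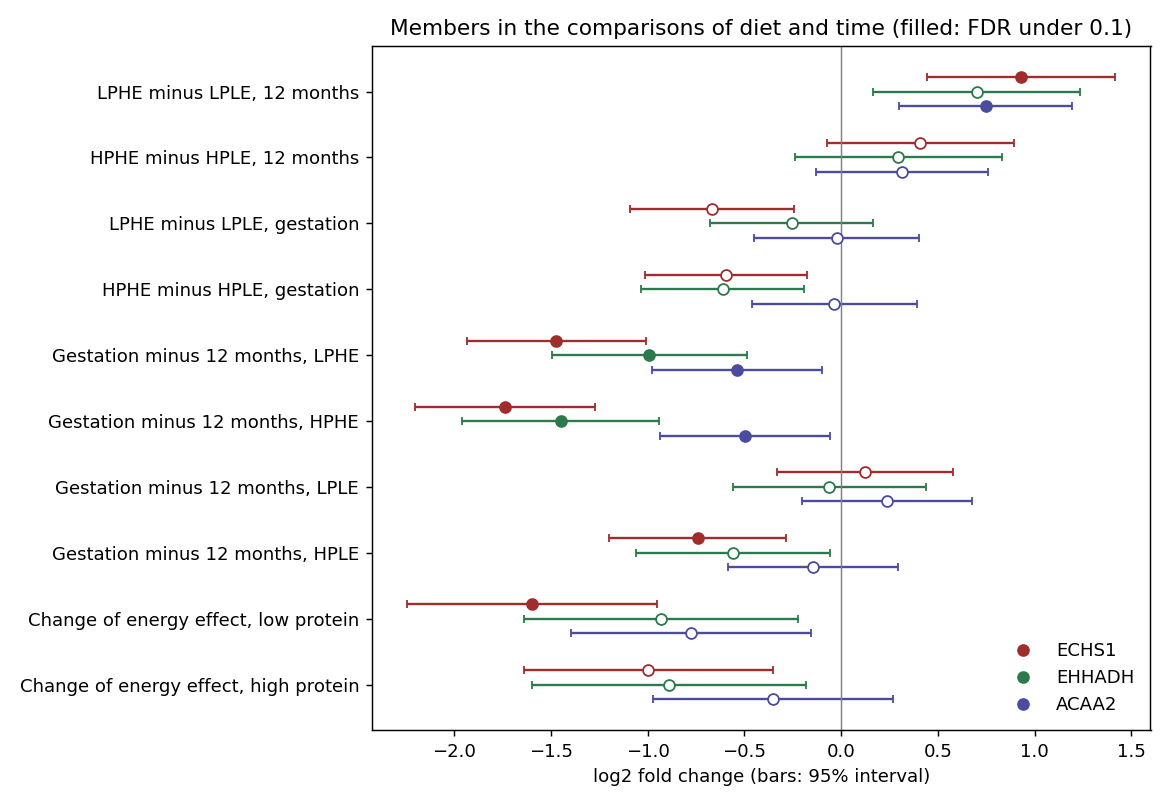
Log2 fold changes of ECHS1, EHHADH and ACAA2 (horizontal axis) in 10 comparisons of diet and sampling time, with bars for the 95% interval. Filled points had an FDR under 0.1 and open points did not. ECHS1 was at 0.93 in LPHE minus LPLE at 12 months and at -0.67 in the same heifers in gestation.

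In month 7 of gestation, when all heifers had the same feed, the HE heifers had the lower ECHS1 levels. Pregnancy was targeted at a body weight, which LE heifers reached later, so LE heifers were older at this sampling. They had also been fed the diets for longer. In the energy contrasts of gestation, and in the change of the energy effect with time, these differences cannot be told apart from the energy level. ECHS1 ranged from 262 to 460 CPM in LPHE heifers (median 304) and from 309 to 770 CPM in LPLE heifers (median 529). At high protein it ranged from 224 to 308 CPM in HPHE heifers (median 280) and from 249 to 481 CPM in HPLE heifers (median 434), where heifer 13 at 249 CPM was the only HPLE heifer within the HPHE range. The differences were -0.67 at low protein (SE 0.22, FDR = 0.135, 1.05% of genes called) and -0.59 at high protein (SE 0.21, FDR = 0.299, 0.948% called), and neither passed by itself. Over both protein levels the difference was -0.63 (SE 0.15, FDR = 0.00256), a 1.55-fold lower level in HE heifers, in a contrast that called 3.74% of genes. In the exact permutation tests the high protein difference had p = 0.0108 (adjusted 0.0433) and the low protein difference p = 0.0476 (adjusted 0.114). The low protein difference passed the FDR without heifer 4 (0.0371), 13 (0.0673), 18 (0.0171) or 20 (0.0532) and with DESeq2 (0.0690). Heifer 13, fed HPLE, acts on the low protein contrast only through the shared fit and the adjustment. The high protein difference passed without heifer 13 (-0.72, FDR = 0.0426).

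For EHHADH and ACAA2 no energy contrast passed its FDR in gestation. EHHADH ranged from 32.7 to 58.3 CPM in LPHE heifers (median 36.6) and from 32.8 to 60.4 CPM in LPLE heifers (median 49.1), with a difference of -0.26 (SE 0.22, FDR = 0.783). At high protein it ranged from 19.5 to 38.3 CPM in HPHE heifers (median 28.7) and from 19.7 to 51.4 CPM in HPLE heifers (median 50.2), with a difference of -0.61 (SE 0.22, FDR = 0.269). Of the 6 HPLE heifers, 5 lay above all HPHE heifers, and heifer 13 lay near the lowest HPHE heifer. Without heifer 13 the difference was -0.78 (FDR = 0.00575). Over both protein levels EHHADH differed by -0.43 (SE 0.15, FDR = 0.0782), which passed the FDR of 0.05 without heifer 11, 13, 18 or 20 (FDR from 0.00275 to 0.0435). ACAA2 ranged from 355 to 603 CPM in LPHE and from 322 to 565 CPM in LPLE heifers, and from 248 to 568 CPM in HPHE and from 225 to 625 CPM in HPLE heifers. Its differences were -0.02 (SE 0.22), -0.03 (SE 0.22) and, over both protein levels, -0.03 (SE 0.15, FDR = 0.956), with a 95% interval from -0.33 to 0.27. The difference between the energy effects at low and high protein was not significant in gestation for any member, at 0.01 for ACAA2, -0.07 for ECHS1 and 0.36 for EHHADH (0.00746% of genes called).

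From 12 months to gestation the members fell in the heifers that had been on high energy. In LPHE heifers ECHS1 fell by 1.47 on the log2 scale (SE 0.24, FDR = 4.45e-08), EHHADH fell by 0.99 (SE 0.26, FDR = 0.00145) and ACAA2 fell by 0.54 (SE 0.22, FDR = 0.0628). In HPHE heifers ECHS1 fell by 1.74 (SE 0.24, FDR = 8.17e-11), EHHADH fell by 1.45 (SE 0.26, FDR = 1.12e-06) and ACAA2 fell by 0.50 (SE 0.22, FDR = 0.0862). Many genes moved in these contrasts, 29.8% of those tested in LPHE and 32.4% in HPHE heifers, and a call of a member is to be read against these shares. ECHS1 and EHHADH were lower in gestation in all 6 heifers of both diets, and ACAA2 in 5 of 6. The heifer-wise changes of ECHS1 ranged from -1.86 to -0.82 in LPHE and from -2.25 to -1.34 in HPHE heifers, and in HPHE heifers the lowest level at 12 months (642 CPM) was above the highest in gestation (308 CPM). The calls of ACAA2 were near the threshold. They were lost with library size alone in place of TMM (LPHE, FDR = 0.168, and HPHE, 0.196). The LPHE call was also lost without heifer 3, 5, 16 or 24 (FDR from 0.111 to 0.214). The HPHE call was lost without heifer 2, 6, 14, 19 or 23 (FDR from 0.104 to 0.269). Heifer 14 was fed LPLE and acts on the HPHE contrast only through the shared fit and the adjustment.

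In heifers that had been on low energy, ECHS1 in HPLE heifers was the only call of a member. In LPLE heifers no member passed the test (0.598% of genes called), with differences of 0.12 for ECHS1 (SE 0.23), -0.06 for EHHADH (SE 0.25) and 0.24 for ACAA2 (SE 0.22). ACAA2 was higher in gestation in all 6 LPLE heifers, by 0.02 to 0.73 on the log2 scale, and ECHS1 in 4 and EHHADH in 5 of them. In HPLE heifers ECHS1 fell by 0.74 (SE 0.23, FDR = 0.0702), where 2.62% of genes were called, and was lower in 5 of 6 heifers. The call was lost without heifer 7, 17 or 21 (FDR from 0.227 to 0.337), with the quasi-likelihood F test (FDR = 0.112) and without the libraries rich in muscle markers (FDR = 0.117). EHHADH and ACAA2 differed by -0.56 (SE 0.26, FDR = 0.366) and -0.15 (SE 0.22, FDR = 0.914) in HPLE heifers. An exact sign-flip test within 6 heifers cannot go below p = 0.0313. That value was reached by ECHS1 and EHHADH in LPHE and HPHE heifers and by ACAA2 in LPLE heifers, and it was 0.0667 after adjustment over the 15 tests of sampling time.

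Over all diets ECHS1 was lower in gestation in 19 of 24 heifers, EHHADH in 17 and ACAA2 in 13. ECHS1 fell by 0.96 (SE 0.12, FDR = 2.48e-14), EHHADH fell by 0.77 (SE 0.13, FDR = 5.41e-08) and ACAA2 fell by 0.24 (SE 0.11, FDR = 0.0811), in a contrast in which 44.5% of genes were called. A permutation test over 100000 sign flips gave p = 8e-05 for ECHS1, 1e-04 for EHHADH and 0.0356 for ACAA2, or 0.00075, 0.00075 and 0.0667 after adjustment. The call of ACAA2 was lost without any 1 of 10 heifers (2, 4, 7, 10, 14, 16, 19, 21, 22 and 24, FDR from 0.104 to 0.171), with library size alone (FDR = 0.302) and without the filter on low counts (FDR = 0.107). Age, pregnancy and the change of feed coincide with the sampling time and cannot be told apart.

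The change of the energy effect between sampling times was tested directly for each member. At low protein the energy effect on ECHS1 in gestation was lower by 1.60 on the log2 scale than at 12 months (SE 0.33, FDR = 2.35e-04), and this interaction was called for 9.24% of genes. It contains the 12-month difference on which the study selected the members, so it is not independent of that selection. The interaction was -0.93 for EHHADH (SE 0.36, FDR = 0.105) and -0.78 for ACAA2 (SE 0.32, FDR = 0.129). At high protein it was -0.996 for ECHS1 (SE 0.33, FDR = 0.134), -0.89 for EHHADH (SE 0.36, FDR = 0.263) and -0.35 for ACAA2 (SE 0.32, FDR = 0.700), with 1.3% of genes called. With the heifer as a block, which uses that each heifer was sampled at both times, the low protein interaction was called for EHHADH (-1.02, FDR = 0.00328) and ACAA2 (-0.78, FDR = 0.0263) too, where 16.4% of genes were called. The blocked fit also called the high protein interaction of ECHS1 (-1.01, FDR = 0.0169) and EHHADH (-0.91, FDR = 0.0302), against 4.99% of genes.

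Protein level and pedigree had no significant effect on the members. High minus low protein at 12 months was 0.23 for ECHS1, 0.20 for EHHADH and 0.15 for ACAA2 (SE 0.16 to 0.19, 0.06% of genes called). In gestation it was -0.35 for ECHS1, -0.31 for EHHADH and -0.03 for ACAA2 (SE 0.15, 0.0895% called), where the unadjusted p of the likelihood ratio test was 0.021 for ECHS1 and 0.039 for EHHADH and the FDR was above 0.99. HMY minus LCM ranged from -0.28 for EHHADH to -0.07 for ECHS1 at 12 months (0.03% called) and from 0.02 for ECHS1 to 0.10 for ACAA2 in gestation (0.179% called).

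Other genes of the pathway were read from a list by role. Of 52 genes of fatty acid entry, the mitochondrial round, electron transfer, the peroxisome and regulation beside the members, 11 could be matched to an identifier. The study's tables of DEG between LPHE and LPLE heifers were the source of identifiers, so these 11 had been selected on the 12-month samples. Their calls, direction and size in that contrast follow in part from this selection and are not independent evidence. In LPHE minus LPLE at 12 months 8 of the 11 were higher and 2 lower, where 7.08% of all genes were called. Their median was 0.85 against -0.02 over all genes tested, and both the share called and this median reflect the selection in part. DECR1, the reductase that handles double bonds in unsaturated fatty acids, was higher by 1.24 (SE 0.25, FDR = 4.66e-04). ETFDH and ETFA, which pass electrons from acyl-CoA dehydrogenases to ubiquinone, were higher by 1.04 (SE 0.23, FDR = 0.00189) and 0.97 (SE 0.23, FDR = 0.00489). CPT2, the inner membrane carnitine palmitoyltransferase, was higher by 0.85 (SE 0.20, FDR = 0.00380). In the peroxisome AMACR, SCP2 and CAT were higher by 0.94, 0.70 and 0.62. CPT1A, which controls the entry of long-chain fatty acids into mitochondria, was lower by 0.61 (log2 difference -0.61, SE 0.16, FDR = 0.0137), and so was PDK4, the kinase that restrains pyruvate oxidation (-0.90, SE 0.31, FDR = 0.0677). ACADS, the short-chain acyl-CoA dehydrogenase, differed by 0.53 (FDR = 0.146).

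The contrasts at high protein and within gestation had not served to select the 11 genes. The changes with time in LPHE and LPLE heifers contain the samples of 12 months that selected them. So does the change of the energy effect at low protein. Calls and direction in these contrasts are therefore not independent of that selection. In HPHE minus HPLE at 12 months, where only 0.12% of all genes were called, none of the 11 was called, with 9 positive differences and a median of 0.39. In gestation, over both protein levels, CPT2, DECR1 and ETFA were lower in HE heifers (-0.32, -0.63 and -0.62) and CPT1A and PDK4 were higher (0.95 and 1.29, FDR = 4.24e-07 and 1.20e-04). CPT1A was at 85.9 to 132 CPM in HPHE heifers and at 32.0 to 67.2 CPM in HPLE heifers in gestation. These groups did not overlap, in a contrast that called 0.948% of genes. The share of all genes without overlap was not counted. From 12 months to gestation 8 of the 11 fell in LPHE and 8 in HPHE heifers, with medians of -1.11 and -1.09. Of all genes, 29.8% and 32.4% were called in these contrasts, in either direction. CPT1A and PDK4 rose in both diets, by 0.90 and 1.15 in LPHE and by 1.08 and 1.74 in HPHE heifers. In LPLE heifers, where 0.598% of all genes were called, 1 of the 11 changed, CAT, which rose by 0.73 (SE 0.16, FDR = 0.00626). The change of the energy effect with time at low protein was called for 9 of the 11, 7 of them lower and 2 higher, and for 9.24% of all genes. DECR1 (-1.79), ETFA (-1.50) and CPT2 (-1.20) were among those lower, and PDK4 (2.10) and CPT1A (1.41) were those higher.

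**Figure D3:**
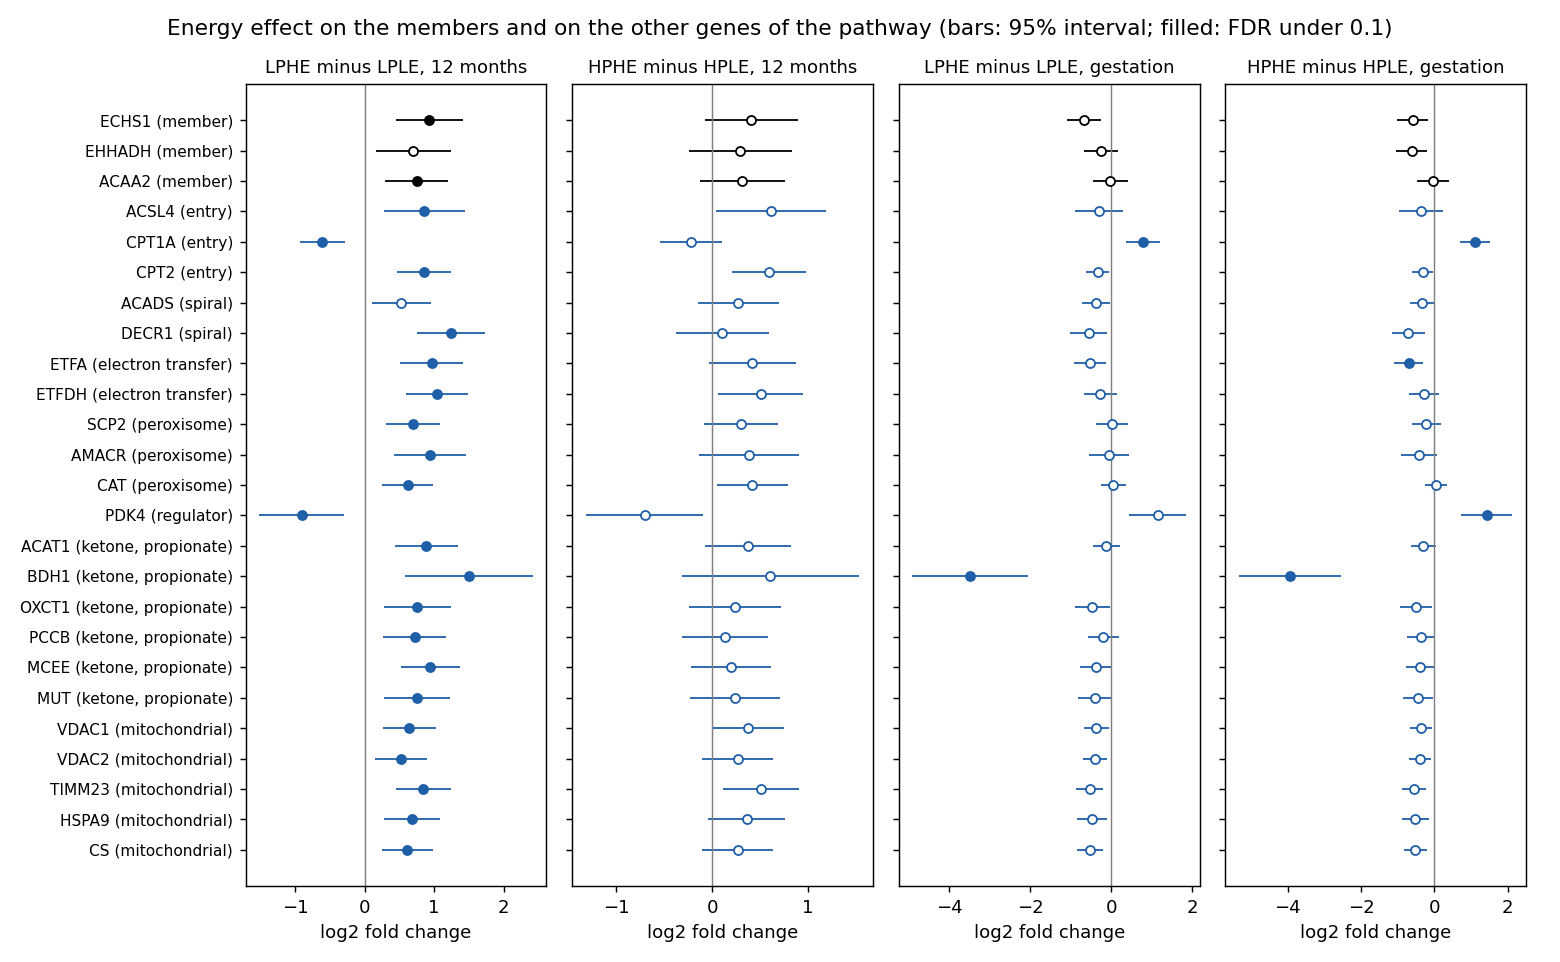
Log2 fold change of high against low energy (horizontal axes, each panel with its own scale) for the members (black) and for 22 other genes (blue) at low and high protein, at 12 months and in gestation. Bars are 95% intervals and filled points had an FDR under 0.1. In LPHE minus LPLE at 12 months CPT1A and PDK4 lie at -0.61 and -0.90, and the members between 0.70 and 0.93. In HPHE minus HPLE in gestation CPT1A and PDK4 lie at 1.11 and 1.43. There ECHS1 lies at -0.59, EHHADH at -0.61 and ACAA2 at -0.03, none of them called.

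Genes for ketone bodies and propionate, to which the products of fatty acid oxidation are linked, were read in the same way, with the same limit on their selection. Of 8 genes 6 were matched, and all 6 were higher in LPHE than in LPLE heifers at 12 months, where 7.08% of all genes were called. The 3 with the lowest p were MCEE (0.95), ACAT1 (0.89) and BDH1 (1.498). In LPHE and in HPHE heifers all 6 fell towards gestation, where 29.8% and 32.4% of all genes were called. BDH1, which interconverts the 2 main ketone bodies, fell by 3.74 in LPHE heifers and fell by 6.39 in HPHE heifers, from a median of 84.3 to 1.20 CPM in the latter. It was the only one of the 6 called between energy levels in gestation (-3.48 at low and -3.94 at high protein), where 1.05% and 0.948% of all genes were called.

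Mitochondrial genes outside fatty acid oxidation were called in the same contrasts. Of 12 housekeeping genes of mitochondria 5 were matched (VDAC1, VDAC2, TIMM23, HSPA9 and CS), through the same tables. Their calls and direction in LPHE minus LPLE at 12 months are therefore not independent evidence either. The same limit holds for their fall in LPHE heifers and their change of the energy effect at low protein. All 5 were higher in LPHE than in LPLE heifers at 12 months (median 0.64, 7.08% of all genes called). All 5 were lower in HE than in LE heifers in gestation (median -0.50, 3.74% called). All 5 fell in LPHE and HPHE heifers (medians -1.13 and -1.23, 29.8% and 32.4% called). The median of the 5 for the change of the energy effect at low protein was -1.13, against -1.60 for ECHS1. Their summed level ranged from 854 to 1470 CPM in LPHE heifers and from 530 to 1005 CPM in LPLE heifers at 12 months. Over the 24 samples of a sampling time, Pearson's r between log2 CPM of the sum and of ECHS1 was 0.85 at 12 months and 0.91 in gestation. For EHHADH r was 0.74 and 0.86, and for ACAA2 0.88 and 0.55. These are descriptions over samples that share their libraries and diets. With CIDEC, r at 12 months was 0.88 for ECHS1, 0.84 for EHHADH and 0.85 for ACAA2, and in gestation 0.58, 0.64 and 0.59. CIDEC itself fell by 0.53 in LPHE heifers (FDR = 0.0516) and by 0.77 in HPHE heifers (FDR = 0.00268), and DCN rose by 0.72 and 0.85. All 3 fibroblast markers had positive differences in both diets, with medians of 0.38 and 0.85, but only 1 was called in each. Whether the share of fat cells had a part in the changes of the members was not tested.

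**Figure D4:**
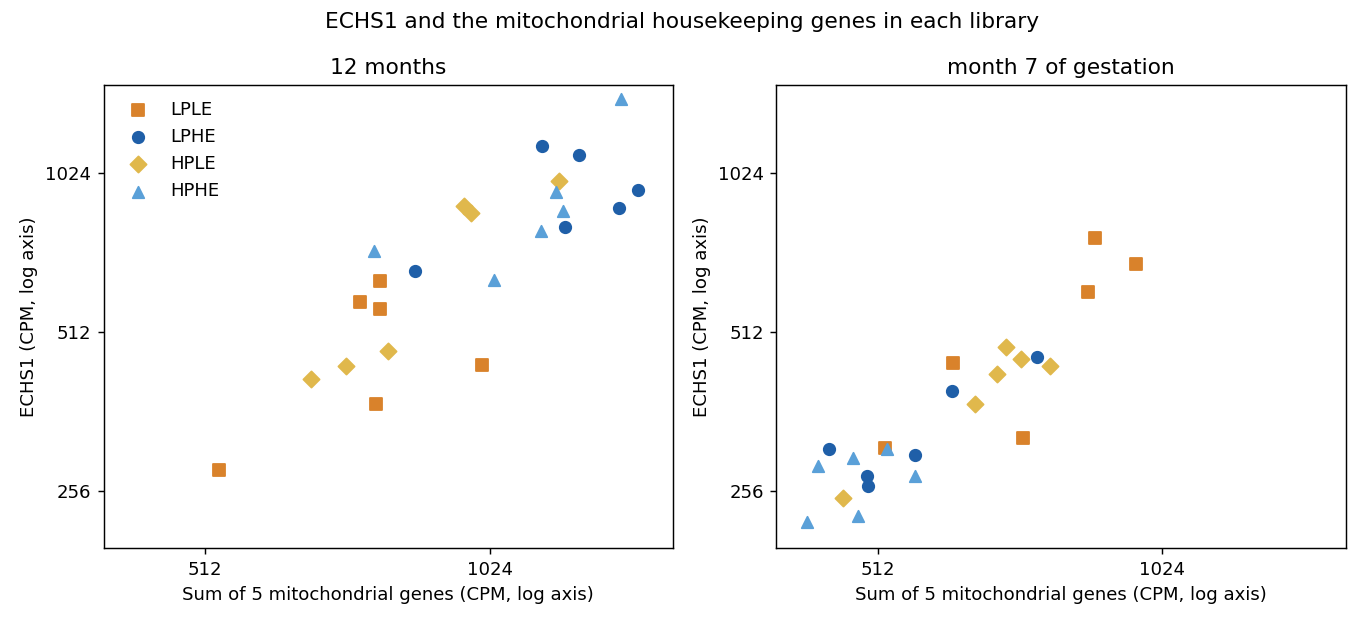
ECHS1 (vertical axis, CPM) against the summed level of VDAC1, VDAC2, TIMM23, HSPA9 and CS (horizontal axis, CPM) in each of 24 libraries at 12 months and in gestation, both on log axes, with 1 symbol per diet. The diets overlap on the horizontal axis at both times. On the vertical axis at 12 months all LPLE heifers (up to 639 CPM) lie below all LPHE (from 667 CPM) and HPHE heifers (from 642 CPM). In gestation all HPHE heifers (up to 307.8 CPM) lie just below all LPLE heifers (from 308.8 CPM). The value of r was 0.85 at 12 months and 0.91 in gestation.

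The members varied together among heifers. At 12 months r was 0.91 between ACAA2 and ECHS1, 0.88 between ECHS1 and EHHADH and 0.84 between ACAA2 and EHHADH, and after the mean of each diet was removed it was 0.85, 0.84 and 0.78 (24 samples). In gestation the same pairs had 0.52, 0.87 and 0.70, and 0.68, 0.84 and 0.83 within diets. The level of a heifer at 12 months was less closely related to its level in gestation, with r of -0.27 for ECHS1, 0.12 for EHHADH and 0.30 for ACAA2 over all heifers and of 0.33, 0.50 and 0.41 within diets.

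The genes most like each member were ranked by r over the 24 samples of 12 months. For ECHS1 they were ENSBTAG00000032217 (r = 0.96), LDHB (0.95), SDHA (0.94), COA3 (0.94) and UQCR10 (0.93), and in gestation r was 0.88, 0.89, 0.95, 0.73 and 0.85. SDHA, a subunit of succinate dehydrogenase, was in gestation the gene most like ECHS1 of all 13717. For ACAA2 they were ATPAF1 (0.96), BCKDHB (0.94), SDHD (0.93), ETFA (0.93) and ENSBTAG00000032217 (0.93), and r in gestation lay between 0.47 and 0.58. For EHHADH they were ENSBTAG00000009351 (0.96), MUT (0.94), ACADSB (0.93), ENSBTAG00000000843 (0.93) and ENSBTAG00000044081 (0.93), and r in gestation lay between 0.25 and 0.86, with MUT, the mutase of propionate breakdown, at 0.86. Symbols were known for genes in the study's tables only.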

How the data were processed

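Counts per gene were available for 48 subcutaneous adipose samples, 24 heifers at 2 sampling times, with diet, pedigree, time and heifer taken from the sample labels. The authors prepared TruSeq libraries that do not mark strand, trimmed reads with cutadapt (1.3), aligned them to UMD3.1 with TopHat2 (2.0.12) and counted them per Ensembl gene with HTSeq, and deposited the raw counts without normalisation. The sequencing lane of a sample is not given in the sources used here. The 5 summary rows of HTSeq were left out, and genes took a median of 57.0% of all rows' counts in gestation (range 39.0% to 61.2%). The lowest shares in gestation were 39.0% in HPLE heifer 7 and 45.1% in HPHE heifer 23. In these libraries 40.0% and 33.1% of counts were of reads without a unique alignment. Without strand, reads of overlapping or antisense genes cannot be told apart. No sequences or coordinates are given, since no genome of the build of the files was used here.

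Symbols were matched to identifiers through the tables of the study alone, and lists were therefore covered in part. Some genes of the lists are not reported here. Genes had to reach 2 CPM in 3 samples or more, which 13339 did at 12 months, 13403 in gestation and 13718 over both times. TMM factors and tagwise dispersions were fitted with edgeR (4.0.16) with diet and pedigree as terms, the likelihood ratio test gave p for each contrast, and Benjamini-Hochberg adjustment gave the FDR. An FDR under 0.1 was called, or under 0.05 for HE minus LE over both protein levels. The SE of a log2 fold change is its size divided by the square root of the likelihood ratio statistic. Sampling times were compared in 1 fit of all samples, with diet by time groups. Permutation tests used log2 CPM with a pseudocount of 0.5 and were two-sided. The heifer was the replicate. No 2 samples of a group were near-identical, as the chi-square per degree of freedom was at least 38.3 over 120 pairs.

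Heifer numbers in the labels mark the same animal at both times and pair the samples. Deviations from the group means of such pairs had a median correlation of 0.30, and 20 of 24 pairs exceeded 0.1. Alternatives were the quasi-likelihood F test, DESeq2 (1.42.0), RLE factors or library size in place of TMM, no filter, no pedigree term, other sets of samples, the heifer as a block, each heifer left out, and other pseudocounts. The fit without libraries whose matched muscle markers summed to 10 CPM or more was added after the data were seen. The members and gene lists were chosen with earlier results of these data known. Named are the members, per list and contrast the called genes with the 3 lowest p, DECR1 as the matched alternative enzyme of a step, and the 5 genes with the highest r with each member. Other list genes named in the text were chosen after their values were seen. The deposited tables of the study's own tests were not used for values. The scripts were tested on simulated counts.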

Additional observations from a re-analysis of the deposited data

Results flagged for a closer look

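EHHADH in HPLE heifers in gestation had 1 heifer far from the others. Heifer 13 was at 19.7 CPM, and the other 5 HPLE heifers were between 42.1 and 51.4 CPM. The gap to the nearest heifer took 0.792 of the range of the group on the log2 scale, above Dixon's critical value of 0.625 for 6 samples. Heifer 13 was also the lowest of its group for ECHS1 (249 CPM, ratio 0.624) and for ACAA2 (225 CPM), and it had been the lowest of the HPLE heifers for all 3 genes at 12 months. Of 24 groups tested, 1 was flagged, and chance alone flags about 1 group in 20 with this value.

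The energy effect on ECHS1 at low protein differed between the sampling times. The interaction was -1.60 on the log2 scale (SE 0.33, FDR = 2.35e-04, likelihood ratio test of edgeR), with LPHE heifers 0.93 above LPLE heifers at 12 months and 0.67 below them (log2 difference -0.67) in gestation. The study had selected ECHS1 on the difference at 12 months, so the interaction is not independent of that selection.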

How the results depend on the processing

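Values are log2 differences. Of 399 values of the members under other tools, scalings, filters and fits, 378 kept their direction and their side of the threshold. The calls of ECHS1 over all diets, in LPHE, in HPHE, in LPHE minus LPLE and for the change of the energy effect at low protein held under each of these choices and with each heifer left out, but that of LPHE minus LPLE was lost without the libraries rich in muscle markers. The causes of the changes below were not tested.

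Without the libraries rich in muscle markers, an alternative chosen after seeing the data that leaves fewer samples, LPHE minus LPLE at 12 months was no longer called for ACAA2 (0.65) and ECHS1 (0.89), nor were HE minus LE for ACAA2 (0.54) and ECHS1 (0.63) and the change in HPLE heifers for ECHS1 (-0.81), and the uncalled pedigree difference in gestation changed sign for ACAA2 (-0.0278) and EHHADH (-0.0337). With library size alone, which shifted the median of all genes by 0.17 in LPHE and 0.13 in HPHE heifers between times, the fall of ACAA2 was not called over all diets (-0.14), in LPHE (-0.37) or in HPHE (-0.35). The uncalled energy effect on ACAA2 in gestation was positive at low protein (0.0422) and over both protein levels (0.0167), and the pedigree difference of ECHS1 was -0.0127. Without the filter, ACAA2 was not called over all diets (-0.23) or in HPHE (-0.52). With the quasi-likelihood F test, ECHS1 was not called in HPLE (-0.74). With DESeq2, calls were gained for ECHS1 in LPHE minus LPLE in gestation (-0.68) and for the change of the energy effect of ACAA2 (-0.80) and EHHADH (-0.95) at low protein and of ECHS1 at high protein (-1.01). RLE factors gained EHHADH at low protein (-0.95). LPHE minus LPLE at 12 months was called for EHHADH in the fit of all 48 samples (0.70) and of the 12 of both diets (0.72).

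With the heifer as a replicate block, the change of the energy effect was called for ACAA2 (-0.78) and EHHADH (-1.02) at low protein and for ECHS1 (-1.01) and EHHADH (-0.91) at high protein, and the uncalled change of EHHADH in LPLE was 0.0232. The block changed no other call of a member. It moved the calls over all genes from 82 to 493 in LPLE, from 360 to 736 in HPLE, from 1267 to 2249 for the change of the energy effect at low protein and from 178 to 684 at high protein.

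With each heifer left out in turn, LPHE minus LPLE at 12 months lay between 0.65 and 0.85 for ACAA2 and between 0.56 and 0.91 for EHHADH. HE minus LE lay between 0.47 and 0.60 for ACAA2 and between 0.42 and 0.59 for EHHADH. In gestation LPHE minus LPLE lay between -0.12 and 0.0393 for ACAA2 and between -0.80 and -0.54 for ECHS1. HPHE minus HPLE lay between -0.19 and 0.0913 for ACAA2, between -0.72 and -0.53 for ECHS1 and between -0.78 and -0.52 for EHHADH. HE minus LE lay between -0.11 and 0.0239 for ACAA2 and between -0.52 and -0.40 for EHHADH. The difference of the energy effects lay between -0.14 and 0.16 for ACAA2 and between -0.21 and 0.0641 for ECHS1, the protein effect on ACAA2 between -0.0847 and 0.035, and the pedigree effect between -0.0459 and 0.0885 for ECHS1 and between -0.0325 and 0.11 for EHHADH. Between times, ACAA2 lay between -0.29 and -0.20 over all diets, between -0.69 and -0.45 in LPHE, between -0.57 and -0.41 in HPHE and between -0.30 and 0.0126 in HPLE. ECHS1 lay between -0.0791 and 0.26 in LPLE and between -0.89 and -0.62 in HPLE, and EHHADH between -0.15 and 0.21 in LPLE. The change of the energy effect at low protein lay between -0.93 and -0.69 for ACAA2 and between -1.21 and -0.79 for EHHADH, and at high protein between -1.11 and -0.86 for ECHS1.

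Counts of genes called moved by more than 1.5 times under alternatives other than leaving out a heifer. At 12 months they went from 944 to between 543 and 1615 for LPHE minus LPLE, from 16 to between 0 and 61 for HPHE minus HPLE, from 14 to between 0 and 27 for their difference, from 960 to between 607 and 1598 for HE minus LE, from 8 to between 0 and 20 for protein and from 4 to between 0 and 11 for pedigree. In gestation they went from 141 to between 0 and 423, from 127 to between 0 and 173, from 1 to between 0 and 4, from 501 to between 339 and 1151, from 12 to between 0 and 23 and from 24 to between 0 and 67 for the same contrasts. With edgeR's quasi-likelihood F test the count was 0 in 9 of these contrasts, in which between 115 and 1790 genes had an unadjusted p under 0.05 and DESeq2 called between 1 and 423, and in none of the 9 was a member called by the likelihood ratio test. The same test gave 42 calls in LPLE and 75 for the change of the energy effect at high protein. Leaving out 1 heifer moved counts as well, to between 484 and 1719 for LPHE minus LPLE and 620 and 1579 for HE minus LE at 12 months, to between 26 and 322, 48 and 286, and 342 and 754 for LPHE minus LPLE, HPHE minus HPLE and HE minus LE in gestation, to between 39 and 200 in LPLE and 178 and 445 in HPLE, and to between 741 and 1776 at low and 33 and 334 at high protein for the change of the energy effect. Of 11 other pathway genes, 2 were lower in LPHE minus LPLE at 12 months, and 1 with the quasi-likelihood F test.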
